A study of Mus musculus with 24 samples.

Results

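The transcriptome described here is that of the unstressed nucleus accumbens (NAc), taken from the 12 control (Con) animals among the 24 mice of the series, chosen by their labelled group alone. They were 6 females and 6 males of strain C57BL/6 in the labels and C57BL/6J in the study's methods, killed at an age of 50 days (P50), and neither early-life stress nor any drug had been applied to them. The other 12 mice had gone through maternal separation with unpredictable maternal stress (MSUS) and enter only as further animals in which the spread of each gene between animals was measured. Both NAc were punched from each frozen brain and made into 1 library of total RNA per mouse, depleted of ribosomal RNA, so the values describe bulk tissue of single animals, and the labels do not say which animals shared a litter.

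The NAc is the ventral part of the striatum, where dopamine from the midbrain meets glutamate from cortex, hippocampus, amygdala and thalamus in circuits for reward and motivation. Most of its neurons are GABAergic spiny projection neurons, which divide into cells with the dopamine D1 receptor, dynorphin and substance P and cells with the dopamine D2 receptor, the Adora2a adenosine receptor and enkephalin. Cholinergic, somatostatin and parvalbumin interneurons make up a small minority, beside astrocytes, oligodendrocytes, microglia and vessels.

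Depth was high and even. Between 39923666 and 64065279 read pairs per animal were assigned to a gene on the sense strand, between 28210 and 29480 genes had at least 1 count, and the share of uniquely mapped pairs falling in no gene ranged from 31.0% to 34.8% in females and from 34.7% to 40.6% in males. Xist, which is transcribed from the inactive X chromosome, had at least 56770 counts in each female and at most 25 in each male, and every pair of libraries within a sex differed by more than counting error.

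The tissue label was checked against the marker genes of the spiny neurons. Levels are given as TPM, the sense count of a gene divided by its exon length and scaled to the same total in every animal, which allows genes to be compared with each other. Drd1, the D1 receptor, had 292 TPM at the median (129 to 336 over the 12 animals), with 259 ± 72.1 in females and 280 ± 47.7 in males (mean ± SD, n = 6 each). Drd2, the D2 receptor, had a median of 214 TPM (99.7 to 261). Ppp1r1b, which encodes the phosphatase inhibitor DARPP-32 of spiny neurons, had 999 TPM (452 to 1233), and Penk, the precursor of enkephalin, had 1896 TPM (717 to 2354). All of these stood high in every animal, and Penk was the 4th most abundant of the nuclear protein-coding genes and Ppp1r1b the 31st. Mbp, the myelin basic protein of oligodendrocytes, reached 880 TPM (730 to 1081), 39th in that order.

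Con female 3 and Con male 5 stood apart from the rest. Con female 3 had the lowest level of Drd1 (129 TPM), Drd2 (99.7), Ppp1r1b (452) and Penk (717), and Con male 5 the next lowest of each (209, 149, 723 and 1211 TPM). In the same libraries Slc17a7, the vesicular glutamate transporter of cortical excitatory neurons, was at its highest, with 794 and 539 TPM against 20.3 to 485 in the other 10 animals. In bulk tissue fewer cells of a type and less RNA per cell cannot be told apart, and the part of the cortical marker RNA in the low spiny neuron values was not tested. Without both animals, a comparison added after the data were seen, the medians were 301 TPM for Drd1, 220 for Drd2, 1076 for Ppp1r1b, 2021 for Penk and 861 for Mbp, so the order of the 5 markers was the same.

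How the transcriptome was divided between genes was considered first. At least 1 TPM in every animal was found for 17079 genes, of which 13045 were protein-coding and 1328 long non-coding, out of 21900 and 8903 annotated genes of these classes. At least 100 TPM in every animal was found for 1224 genes and at least 1000 TPM for 34. The 10 genes with the most counts took between 7.29% and 8.90% of an animal's counts, the top 100 took 18.3% to 19.6%, and 968 to 1064 genes were needed to hold the first 50% of counts. Protein-coding genes received 92.5% of counts at the median and long non-coding RNAs (lncRNAs) 5.36%. The lncRNA share includes Gm26917 and Gm42418, which lie beside or on a ribosomal RNA sequence and are described below.

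Among the 20 most abundant nuclear protein-coding genes Actb, cytoplasmic actin, led with 2237 TPM (2094 to 2376), followed by the translation elongation factor Eef1a1 with 2124 and the calmodulin gene Calm2 with 2067. Penk came next and was the only neuropeptide precursor gene of the 20. The prohormone-processing carboxypeptidase gene Cpe (1633 TPM), Ndrg4 (1550), the ribosomal protein gene Rplp1 (1550), the selenoprotein gene Selenow (1517) and the chaperone gene Hsp90ab1 (1491) followed. Several glial genes came after them, among them Slc1a2, the main glutamate transporter of astrocytes, with 1369 TPM, the lipid carrier Apoe with 1355 and glutamine synthetase, Glul, with 1235. Atp1b1, a subunit of the sodium pump, reached 1194 TPM, and others of the 20 were Psap (1362), Cst3 (1296), Aldoa (1224), Ncdn (1223) and Eef1a2 (1213).

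**Figure D1:**
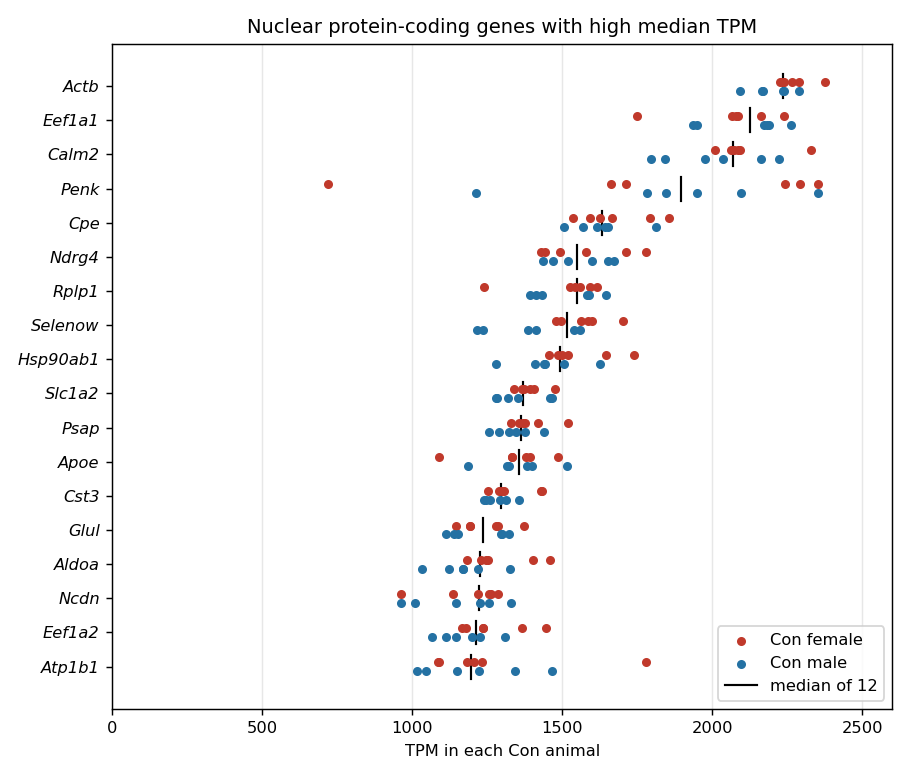
TPM of the nuclear protein-coding genes named above, in order of median, with 1 point per Con animal (red, female; blue, male) and a black bar at the median of 12. Most genes lie in a narrow band, whereas Penk runs from 717 to 2354 TPM, with Con female 3 and Con male 5 at its low end.

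The genes of this list differed in how far animals varied. The within-sex SD on the log2 scale, pooled over both sexes (10 degrees of freedom), was 0.053 for Actb, 0.12 for Eef1a1 and 0.063 for Psap. It was 0.23 for Atp1b1 and 0.53 for Penk, the highest of the 20.

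Marker lists for 16 cell classes were then summed in each animal. The 17 genes shared by both kinds of spiny neuron were all above 1 TPM in every animal and summed to a median of 6262 TPM (3251 to 7402). Their leading members after Ppp1r1b included Gng7 (849 TPM), a G protein subunit, Adcy5 (670), the adenylyl cyclase coupled to striatal dopamine receptors, and the phosphodiesterase genes Pde1b (547) and Pde10a (433). Rasgrp2, a Ras-family exchange factor, was the lowest at 37.3 TPM, followed by Actn2 at 76.9. The list fell furthest below its median in Con female 3 (3251) and Con male 5 (4716).

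The markers that separate the D1 and D2 cells were also present in every animal. The 8 genes of the D1 list summed to 979 TPM (425 to 1090), led by Drd1, the dynorphin precursor Pdyn (281), the substance P precursor Tac1 (161) and the muscarinic receptor Chrm4 (134). At the low end of that list were the transcription factor genes Isl1 (15.5 TPM) and Eya1 (3.36). The 6 genes of the D2 list summed to 2545 TPM (1082 to 3120), most of it Penk, with Adora2a at 238 and Gpr6, a receptor enriched in these cells, at 114. Without Con female 3 and Con male 5 the median sum was 1023 TPM for the D1 list and 2717 TPM for the D2 list.

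Interneuron genes were far lower than those of projection neurons, apart from the neuropeptides. Sst, somatostatin, had 531 TPM (447 to 864) and Npy, neuropeptide Y, 197 (156 to 303). Nos1, neuronal nitric oxide synthase, had 41.4 TPM and the parvalbumin gene Pvalb 27.0 (6.17 to 39.1). The cholinergic genes Slc5a7, Slc18a3 and Chat, which encode the choline transporter, the vesicular acetylcholine transporter and choline acetyltransferase, had 20.97, 11.7 and 9.57 TPM, and Vip was the lowest at 2.85.

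Glial and vascular lists were steady between animals. The mature oligodendrocyte list summed to 3710 TPM (2963 to 4477), with Mbp among the highest, and the astrocyte list to 2366 TPM (2241 to 2501), of which Slc1a2 made the larger part and Gfap only 27.6. Oligodendrocyte precursors summed to 322 TPM (296 to 369), led by Olig1 (133), and microglia to 514 (490 to 546), with the complement genes C1qa (81.8) and C1qb (73.3) among the highest. Endothelial genes summed to 314 TPM (294 to 328) and mural genes to 185 (171 to 205). The within-sex SD of the log2 sum was 0.056 for astrocytes, 0.055 for microglia, 0.048 for endothelium and 0.059 for mural cells, compared with 0.35 for the shared spiny list and 0.17 for mature oligodendrocytes.

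Genes of cells outside the NAc were low or varied. Of the markers of midbrain dopamine and serotonin neurons, Slc6a3, the dopamine transporter, had 0.358 TPM and Slc6a4, the serotonin transporter, 0.0309, while Th, tyrosine hydroxylase, had 11.1. The 8 genes of the choroid plexus and ependyma list summed to 31.5 TPM (16.3 to 51.9), led by Clic6 (17.4) and Foxj1 (7.07), a transcription factor gene of ciliated cells, and 4 of the 8 were above 1 TPM in every animal. Its defining markers Ttr, transthyretin, and Folr1 stood at 0.0635 and 0.0149 TPM, and the fibroblast genes Col1a1 and Dcn stood at 5.04 and 1.56. Red blood cell genes summed to a median of 304 TPM (184 to 986), led by the globin gene Hbb-bs (201), and Con male 4 alone reached 986 against 211 to 423 in the other males.

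The cortical excitatory list differed most between animals. Its 10 genes summed to a median of 336 TPM, from 117 in Con male 6 to 1227 in Con female 3, a range of 10.5-fold, and the within-sex SD of its log2 sum was 1.10. Con male 5 had 872 TPM and Con female 2 had 821, whereas Con male 3 and Con male 4 had 139 and 133. Slc17a7 ran from 20.3 to 794 TPM and Neurod6, a transcription factor gene of cortical pyramidal neurons, from 1.44 to 62.4, while Cux2, Rorb and Mef2c, which other neurons also express, varied less than Slc17a7 (SD of 0.15, 0.35 and 0.38 on the log2 scale against 1.58). The list was thus above the floor of detection in all punches, and its level was an axis on which the Con animals spread out.

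**Figure D2:**
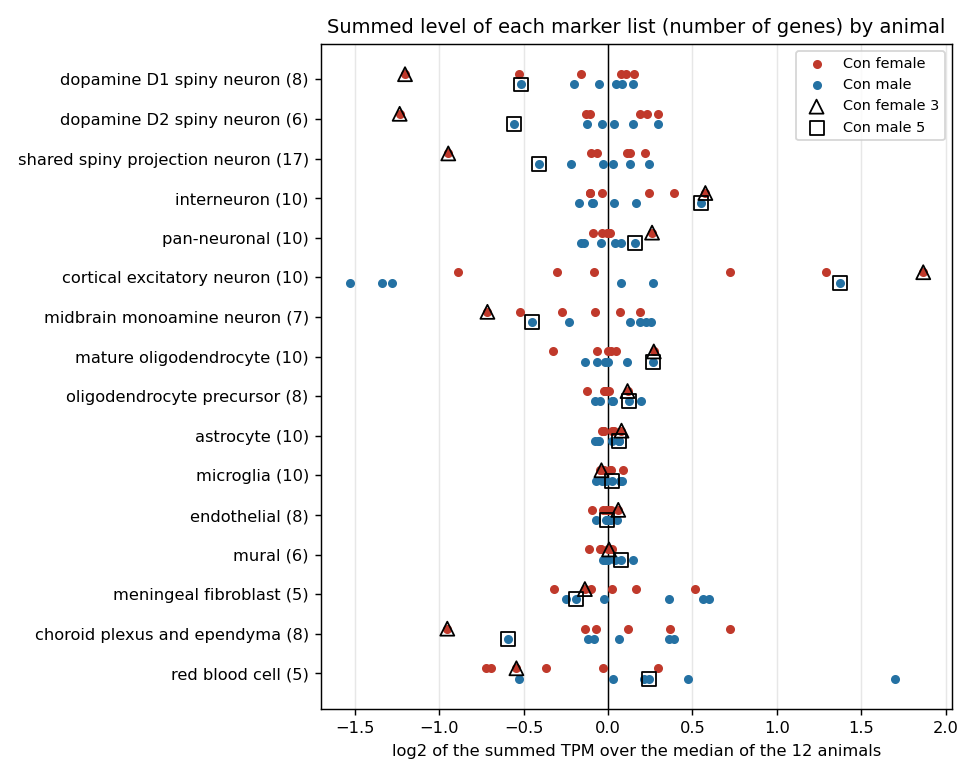
Summed TPM of each marker list in each Con animal, as the log2 ratio to the median of the 12 animals (red, female; blue, male; triangle, Con female 3; square, Con male 5). Glial and vascular lists cluster at 0, the cortical excitatory list spans 10.5-fold, and Con female 3 and Con male 5 are low on the spiny neuron lists.

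Whether other lists moved with the cortical list was examined across the 12 animals, a relation chosen after the data were seen, for 15 lists in log2 summed TPM. TPM sums to the same total in each animal, so a rise in some genes lowers the others slightly. The interneuron list rose with it (Pearson r = 0.91, adjusted permutation p = 0.00075; Spearman rho = 0.83, adjusted permutation p = 0.0092), and r was 0.94 in females, 0.92 in males, 0.96 in library numbers 1 to 12 and 0.86 in library numbers 13 to 24. Sst and Npy made up most of that sum, so r describes them more than the other members, which were not correlated singly. Chat, a member of the list, lay opposite Neurod6 and Cck on the first principal component given below. The midbrain monoamine list fell with the cortical list (r = −0.90, adjusted permutation p = 0.00075; rho = −0.89, adjusted permutation p = 0.0051), with r between −0.87 and −0.91 in the same 4 subsets. Its sum was low, with a median of 20.5 TPM led by Th, and only 2 of its 7 genes were above 1 TPM in every animal. Without the 2 animals farthest from the median of the cortical list, Con female 3 and Con male 6, r was 0.89 for the interneuron list and −0.86 for the monoamine list.

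For the D1 list r was −0.72 and for the D2 list −0.71 (adjusted permutation p = 0.014 for both), but the rank correlations of −0.56 and −0.65 were not past 0.05 after adjustment (adjusted permutation p = 0.105 for both). Within females r was −0.91 and −0.85, within males −0.50 and −0.65, and in library numbers 13 to 24 −0.57 and −0.34. The shared spiny list gave r = −0.63 (adjusted permutation p = 0.0496) and only −0.065 in library numbers 13 to 24. The pan-neuronal list rose with the cortical list in r (0.72, adjusted permutation p = 0.019) but was not past 0.05 in rho (0.59, adjusted permutation p = 0.105), with r at 0.94 and 0.16 in the lower and upper library numbers. Its members were Snap25, Syt1, Tubb3, Map2, Nefl, Rbfox3, Stmn2 and the GABAergic genes Gad1, Gad2 and Slc32a1, so it does not weigh all neurons alike. None of the other lists passed.

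Neuropeptide precursors, the ligands of the NAc's peptide signalling, spanned the full range of levels. After Penk, Sst, Pdyn, Npy and Tac1 came Cartpt, the precursor of the CART peptide, with 104 TPM (27.4 to 136), Nts, neurotensin, with 63.5 (15.6 to 89.8), and Cck, cholecystokinin, with 61.8. Cck differed from the rest in its spread. In females it had 152, 249, 389, 32.0, 39.1 and 35.8 TPM in animals 1 to 6, and in males 107, 84.5, 23.2, 16.3, 246 and 13.01, so the animals with the most cortical marker RNA were also those with the most Cck. At the other end, Avp, vasopressin, had 0.219 TPM, and Hcrt and Oxt, orexin and oxytocin, which hypothalamic neurons make, were under 0.1 TPM.

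Receptor genes were ordered by median TPM within 17 families, and each gene was compared with the next in order by an exact two-sided sign-flip permutation test over the 12 animals. Of 111 neighbouring pairs, 75 passed at an adjusted p under 0.05 and 36 did not, and in 47 pairs the higher gene was higher in 12 of 12 animals. The smallest p that the 4096 sign flips allow is 0.000488, or 0.00115 after adjustment, which is meant below by the smallest p. The neighbours were chosen by the same levels that were tested, and an error in annotated exon length would shift a gene in all animals alike.

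Among dopamine receptors the order was Drd1, Drd2, Drd3, Drd5 and Drd4. The D1 receptor exceeded the D2 receptor in 12 of 12 animals by 0.40 ± 0.14 in log2 TPM (mean ± SD, n = 12; exact adjusted p = 0.00115). Drd3, a D2-class receptor typical of the ventral striatum, had 26.9 TPM (11.4 to 32.0), and Drd5 had 3.98 (3.08 to 5.29). Drd4 was close to undetected at 0.134 TPM, and each step down the order had the smallest p.

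The opioid receptors lay close together. Oprl1, the nociceptin receptor, had 31.0 TPM (28.7 to 42.0), Oprd1, the delta receptor, 26.3 (21.6 to 33.6), Oprk1, the kappa receptor, 22.9 (12.98 to 27.2), and Oprm1, the mu receptor, 14.1 (9.33 to 17.2). The steps between the first 3 were held by 10 of 12 animals each (exact adjusted p = 0.020 and 0.0090), and the step to Oprm1 by all 12 with the smallest p.

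Muscarinic receptors were led by Chrm4, the inhibitory M4 receptor of D1 cells, with 134 TPM, and Chrm1, the M1 receptor, with 102. Chrm4 exceeded Chrm1 in 11 of 12 animals by 0.33 ± 0.43 in log2 TPM (exact adjusted p = 0.044). Chrm3, Chrm2 and Chrm5 had 11.8, 9.29 and 4.32 TPM. Of the nicotinic subunits, Chrnb2 (25.8 TPM) and Chrna4 (20.5) came highest and did not differ beyond their spread (exact adjusted p = 0.455), Chrna7 had 11.3, and the other 6 were below 1 TPM.

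Adora2a, at 238 TPM, exceeded Adora1, the A1 receptor, at 110 in 11 of 12 animals (exact adjusted p = 0.00197), while Adora2b and Adora3 had 2.87 and 0.567. Cnr1, the CB1 cannabinoid receptor, had 68.8 TPM (49.4 to 162), and its highest value was that of Con female 3. Gpr55 and Cnr2, the CB2 receptor, had 0.218 and 0.202 TPM and did not differ beyond their spread (exact adjusted p = 0.248).

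Serotonin receptors formed a graded series with several ties. Htr2c (60.1 TPM) and Htr1b (51.3) were highest and did not differ beyond their spread (exact adjusted p = 0.219), nor did Htr2a (21.9) and Htr1d (19.6; exact adjusted p = 0.90). Htr6 had 15.8 TPM and Htr4 13.1, and the latter ran from 1.79 to 16.6. No step from Htr4 over Htr1a (10.7) and Htr5a (9.24) to Htr1f (8.76) passed, whereas Htr7 (6.19), Htr3a (2.99) and Htr5b (1.01) each lay below the gene before it (largest exact adjusted p = 0.0129). Htr2b was under 0.1 TPM. Among adrenergic receptors Adra2c, an inhibitory receptor enriched in striatum, led with 54.9 TPM ahead of Adrb1 (18.8) and Adra1a (12.4), and Adrb3 was lowest with 0.218.

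Ionotropic receptors for GABA and glutamate were among the higher receptor genes. Of the GABA-A subunits, which form the chloride channels of fast inhibition, Gabrb2 had 108 TPM (98.0 to 132) and Gabrd 94.1 (62.8 to 114), and Gabra6, a subunit of cerebellar granule cells, was under 0.1. Gabbr1, a subunit of the metabotropic GABA-B receptor, had 414 TPM (376 to 433) and its partner Gabbr2 84.4. Gria1 was the highest AMPA subunit with 408 TPM (344 to 449), followed by Gria2 with 177, Gria3 with 82.6 and Gria4 with 48.3. In each of these steps the higher AMPA subunit was higher in 12 of 12 animals. The NMDA subunits ran from Grin2b (243 TPM, 210 to 273) over the obligate subunit Grin1 (183) and Grin2a (67.3) to Grin3b (0.282), again with the smallest p at each step.

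Among kainate subunits Grik5 led with 171 TPM and Grik1 was lowest with 6.32. The metabotropic glutamate receptors were led by Grm3 (251 TPM) and Grm5 (185), a receptor of spiny neurons that couples to calcium release, while Grm2 and Grm8 had 3.74 and 3.23 and Grm6, a retinal receptor, was under 0.1. Peptide receptors were led by Adcyap1r1, the PACAP receptor, with 116 TPM, and Ntsr2 with 84.2, ahead of Cckbr (21.4) and Sstr4 (21.3), which did not differ beyond their spread (exact adjusted p = 0.979). Oxtr, the oxytocin receptor, had 5.25 TPM (3.21 to 16.6), and Ghsr was under 0.1. Among neurotrophin receptors Ntrk2, the receptor of BDNF, had 134 TPM (124 to 163), Ntrk3 52.3 and Ngfr 1.81.

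Steroid hormone receptors were led by those for corticosterone. Nr3c1, the glucocorticoid receptor, had 61.1 TPM (55.5 to 71.5) and Nr3c2, the mineralocorticoid receptor, 51.0 (39.7 to 55.4). Pgr, the progesterone receptor, had 13.2 TPM (11.9 to 15.1). Of the estrogen receptors, the membrane receptor Gper1 had 2.88 TPM (2.25 to 3.29), Esr1 had 0.686 (0.393 to 1.12) and Esr2 0.339 (0.212 to 0.473).

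**Figure D3:**
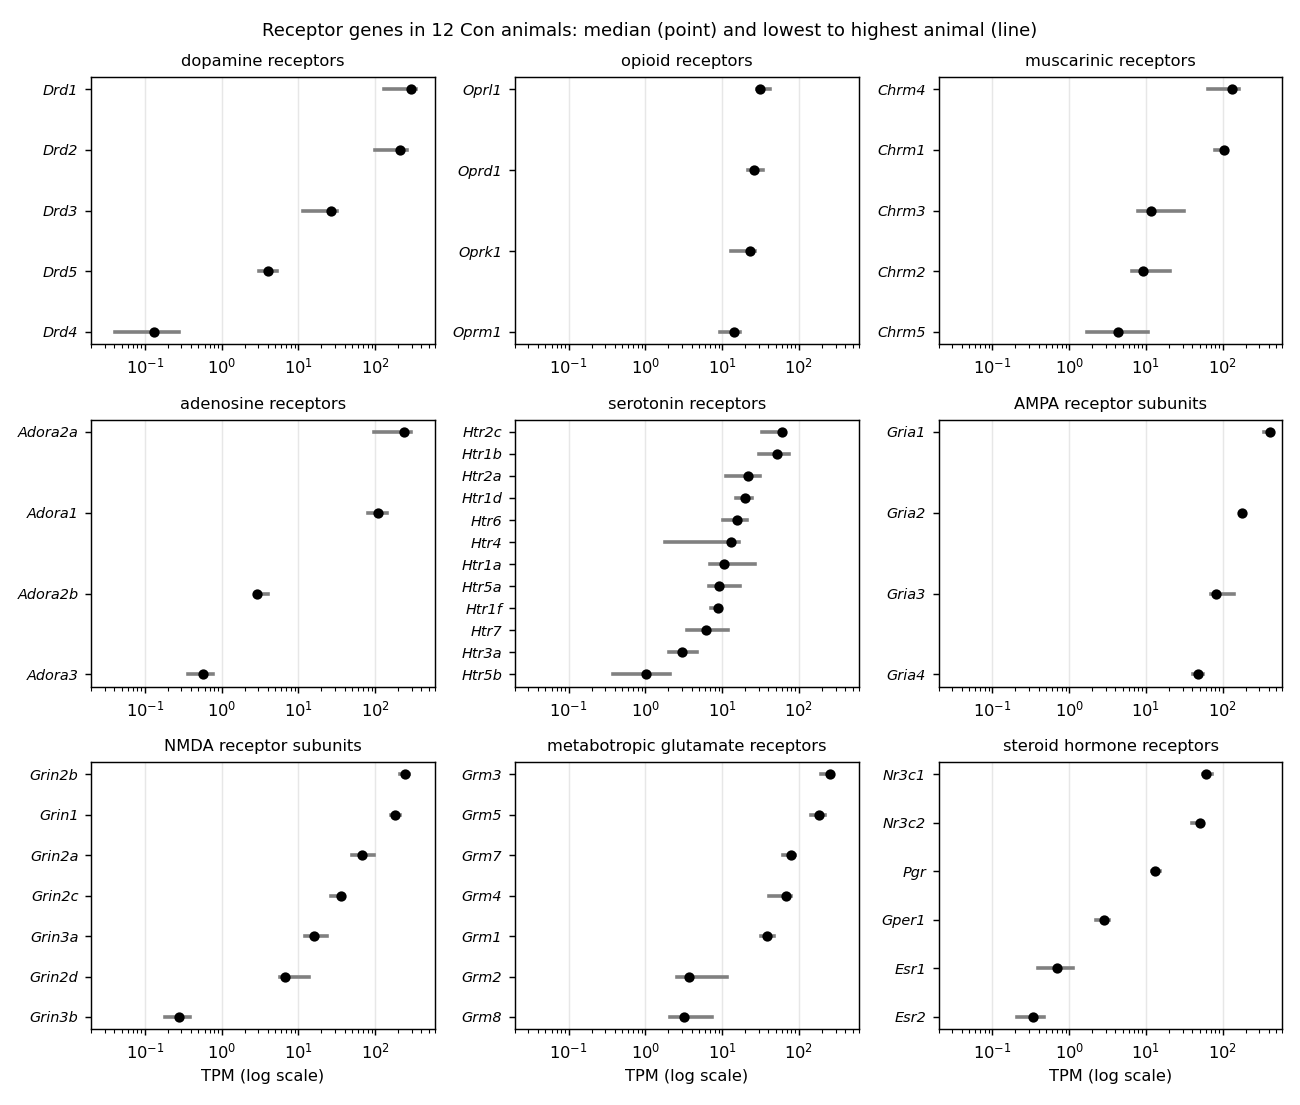
Median TPM (point) and the lowest to highest of 12 Con animals (line) for 9 receptor families, on a log axis in order of median. Drd1 and Drd2 lie well above Drd3, Drd5 and Drd4, the opioid receptors lie close together, and the estrogen receptor genes Esr1 and Esr2 have medians below 1 TPM.

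Non-coding RNA was dominated by few genes. Rn7sk, a small nuclear RNA that restrains transcription elongation, took 1.09% of counts but, being short, reached 122270 TPM, and the RNA subunits of the ribonucleases P and MRP, Rpph1 and Rmrp, had 17063 and 11438. Among lncRNAs, Gm26917 had the largest share of counts of any gene (2.20%, 24267 TPM), ahead of Malat1, a nuclear speckle RNA (1.36%, 7256 TPM), and Gm42418 (0.359%, 7218 TPM). RefSeq gives Gm42418 as another name of Rn18s-rs5, a ribosomal RNA sequence at chr17:39846354-39848202 on GRCm38.p6 that shares 1245 bases with it, and Gm26917 lies beside it at chr17:39843013-39846341. Ribosomal RNA had been depleted before sequencing, and how far its remainder entered these 2 genes was not tested.

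The next lncRNAs were 2900097C17Rik (838 TPM), the imprinted genes Meg3 (657, 569 to 900), Peg13 (216) and Rian (132), and 1700020I14Rik (194), B230334C09Rik (126) and Mir124a-1hg (125), the host of a neuronal microRNA. Of a list of known lncRNAs, Snhg11 had 495 TPM and Gas5 58.2, while Neat1, the scaffold of paraspeckles, had 9.42 and Rmst, the lowest, 2.58. Dlx6os1, antisense to a gene of GABAergic neurons, had 45.7.

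All genes of the mitochondrial genome together took 2.97% of counts at the median (1.95% to 3.32%), and its 13 protein-coding genes fell into 2 classes. mt-Co1 had 28489 TPM, mt-Cytb 18982, mt-Nd1 14944, mt-Nd4 6891, mt-Nd5 6815, mt-Nd2 5588 and mt-Nd6 2258. The 6 genes that lie next to each other from mt-Co2 to mt-Nd4l (M:7013-10173) were all below 40 TPM, with mt-Co2 at 36.6, mt-Co3 at 24.6, mt-Atp6 at 17.6, mt-Nd4l at 9.50, mt-Nd3 at 8.29 and mt-Atp8 at 0.298. The counts leave out pairs that map to several places, which were 4.72% to 5.95% of mapped pairs, and the part of that rule in these low values was not tested.

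How far animals differed was measured as the within-sex SD of log2 CPM (counts scaled to library size, TMM-normalized) for genes with at least 500 counts on average. Over 10028 protein-coding genes the median SD was 0.098, and 90% of genes lay between 0.045 and 0.338. An SD above 0.5 was found for 193 genes and above 1 for 30. In the 12 MSUS animals the median was 0.099, and across genes the SDs of Con and MSUS animals had a rank correlation of 0.795, given as a description since genes are not independent. The 154 lncRNAs past the same minimum varied more (median SD of 0.15), led by F730043M19Rik (0.89), Miat (0.69), 6530402F18Rik (0.68), A830036E02Rik (0.59) and Six3os1 (0.50).

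The most variable genes included markers of cortical excitatory neurons. The first was Neurod6 (SD of 1.89), followed by the cortical transcription factor gene Neurod2 (1.74), the nuclear receptor gene Nr4a2 (1.68), Prss12 (1.67), Cck (1.64), Bmp3 (1.60), Ccn3 (1.60), Slc17a7 (1.58) and Tbr1 (1.50). Slc30a3, the zinc transporter of glutamatergic vesicles, Cplx3 (1.43), Ccn2 (1.42), Nxph3 (1.41) and Vxn (1.40) were also among the 15. In the MSUS animals 13 of the 15 were again among the 15 most variable, with a median SD of 1.68 against 1.60 in Con. After the cortical marker score was removed by regression, 1 of the 15, Slc30a3, was still among the 15 most variable.

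With the cortical score removed, Mki67, a marker of dividing cells, had the highest SD (0.96), followed by the collagen gene Col1a1 (0.89), Slc30a3 (0.85), the serotonin receptor gene Htr4 (0.78) and the activity-regulated gene Npas4 (0.76). Fos (0.67), Nts (0.62) and Cartpt (0.60) were also among the first 15. The first principal component of the within-sex variation, which held 62.2% of it, had Neurod6, Neurod2 and Cck at its top end and Gpr101, Peg10, Htr4, Isl1, Chat and Pdyn at the other.

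The steadiest gene was Kidins220, a scaffold of neurotrophin receptors, which had an SD of 0.017 and ran from 208 to 229 TPM over all 12 animals. Lamtor2, a lysosomal signalling adaptor (0.019), the RNA-binding protein gene Prrc2c (0.020), Amz2 (0.021), the ubiquitin ligase gene Huwe1 (0.022) and the kinase gene Nek9 (0.022) came next, followed by Ecpas, Spcs2, Atg2b, Tbl2, Wbp11, Tmem248, Ubap2l, Scaf11 and Rnf214. For 6 of the 15 the SD was below the counting error, and only 2 of the 15 were among the 15 steadiest in MSUS animals, in which their median SD was 0.045 against 0.023 in Con, so the rank at this end was not held by a second set of animals. Of the genes often used as references in quantitative PCR, Actb (0.053), Sdha (0.055) and Polr2a (0.063) were among the steadiest, and Tfrc (0.16) and Pgk1 (0.16) among the more variable.

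Con females and males were compared, as the 2 groups within the Con animals, with edgeR's quasi-likelihood test at an adjusted p under 0.10, the threshold of the study. The p-values measure the spread between these animals. Of 20641 genes 544 passed (2.64%), with 165 higher in females (0.799%) and 379 higher in males (1.84%), of which 519 were autosomal. The number past the test was 20 without Con female 4, 21 without Con male 3 and 1395 without Con male 5. It was 1511 in DESeq2, of which 1463 were autosomal. With the share of uniquely mapped pairs in no gene as a covariate it was 11, of which 1 was autosomal, 2 were X-linked and 8 Y-linked. The median log2 difference of all genes was 0.01, and 3670 genes had an unadjusted p under 0.05. All 6 females lay above all 6 males in 0.126% of genes and below them in 2.46%.

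None of the cell class or receptor genes passed in edgeR. Of 133 genes on the cell class lists 0 passed in edgeR and 3 in DESeq2 (Slc2a1, C1qb and Ly6c1), with 10 at an unadjusted p under 0.05, where edgeR called 2.64% of all genes, DESeq2 called 7.32% and 17.8% had an unadjusted p under 0.05. Of 126 receptor genes 0 passed in edgeR and 3 in DESeq2 (Chrm1, Adrb1 and Adra1a), again with 10 at an unadjusted p under 0.05. Drd1 differed by −0.05 ± 0.21 and Drd2 by 0.05 ± 0.21 (log2, female minus male, ± SE). The cortical list had a median log2 difference of 0.91, with all 10 genes above 0 in females but 0 past the test in edgeR and in DESeq2 and 0 at an unadjusted p under 0.05.

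Immediate early genes, which neurons transcribe within minutes of activity, had the most genes past the test of any list examined. Of 19 genes 11 passed, all higher in females, against 0.799% of all genes, and all 19 were above 0, with a median log2 difference of 0.69 against 0.01 for all genes. The 19 genes were measured in the same animals and are not independent of each other. Their counts are thus a description and not a test of the list. Fos had 32.5, 27.2, 30.4, 43.5, 8.81 and 20.1 TPM in females 1 to 6 and 9.12, 5.87, 5.82, 8.53, 8.10 and 13.2 in males 1 to 6. All females but Con female 5 were thus above every male. The difference in Fos was 1.75 ± 0.33 in log2 (± SE; edgeR adjusted p = 0.058).

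Egr4, a zinc finger transcription factor gene, had 38.2 to 50.9 TPM in females (median 45.4) and 25.0 to 37.8 in males (median 28.2), without overlap, and differed by 0.69 ± 0.10 (edgeR adjusted p = 0.013). Egr1, of the same family, had 196 to 262 TPM in females (median 208) and 116 to 184 in males (median 137), also without overlap (0.68 ± 0.11; edgeR adjusted p = 0.035). Gadd45b, which acts in DNA demethylation, was the third gene whose groups did not overlap, with 15.5 to 18.5 against 11.7 to 14.2 TPM (edgeR adjusted p = 0.043). Arc, whose protein acts at synapses, had 64.0 to 192 TPM in females and 42.0 to 69.7 in males (edgeR adjusted p = 0.056). Egr2, Nr4a1, Dusp1, Junb, Fosb and Ier5 passed as well, with log2 differences of 1.16, 1.03, 0.76, 0.69, 0.61 and 0.51.

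The summed level of the 19 genes was 748 to 1217 TPM in females and 522 to 718 in males. Over 26 alternative settings the median log2 difference ran from 0.58 to 0.76, whereas the number of the 19 past the test ran from 0 to 13. The settings refit the same animals or subsets of them, so they are not independent repeats. The number past the test differed between them. It was 6 with the cortical marker score as a covariate, a list whose median log2 difference was 0.91, and 2 with offsets for GC content and exon length. It was 0 with the share of uniquely mapped pairs in no gene as a covariate, a share that was 32.7% in females and 38.4% in males at the median, and 0 within each set of library numbers, and it was 2 without Con female 4 and 1 without Con male 3.

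**Figure D4:**
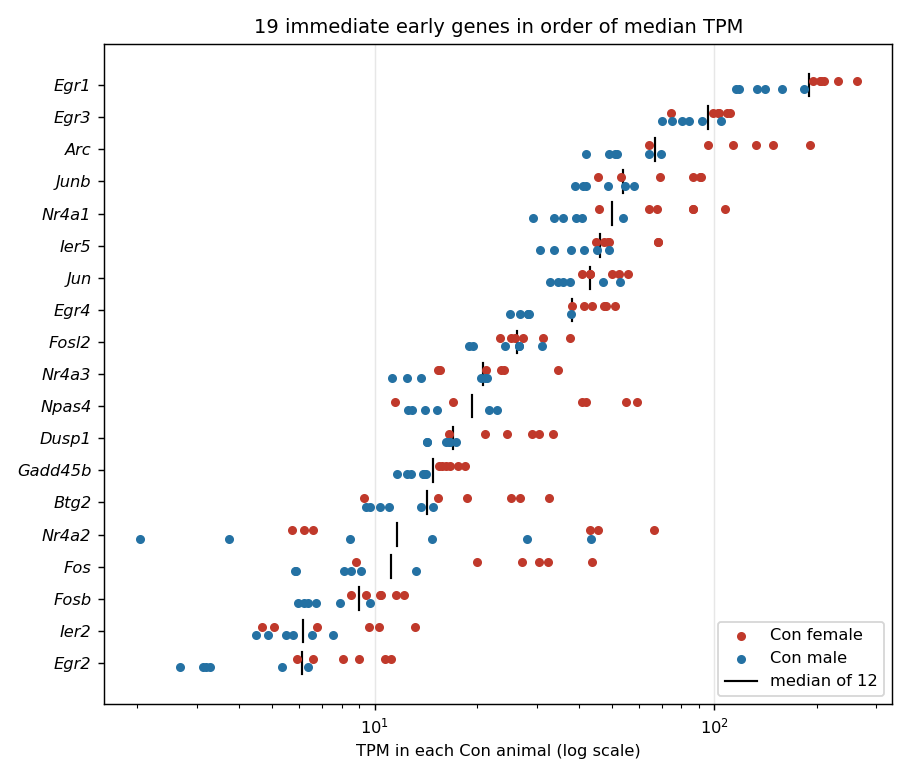
TPM of 19 immediate early genes in each Con animal (log axis; red, female; blue, male; black bar, median of 12). Females lie to the right of males for most genes, and for Egr1, Egr4 and Gadd45b the groups do not overlap.

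Since these genes stood higher together, the start regions of those past the test are shown. From RefSeq (GRCm38.p6), 300 bases around the start (250 before and 50 after) were held for 15 of the 19, and the letters TGACG or CGTCA, the 2 strands of the half-site that CREB-family factors bind, were searched in them. They were found in 10 of the 15 (66.7%), in 20.9% of 27025 promoters in all, and in 37.1% of 70 promoters of the 100 most variable genes and in 41.7% of 84 promoters of the 100 least variable. The full palindrome TGACGTCA, which contains both letter runs, was in 2 of the 15 (13.3%) and in 1.85% of all. The median GC content was 67.0% in the 15, 65.5% and 61.3% in those of the most and least variable genes and 52.7% in all promoters. Matches were in 6 of the 9 promoters of genes past the test (not in Egr2, Ier5 and Gadd45b) and in 4 of the 6 of genes not past it (Npas4, Nr4a2, Nr4a3 and Btg2), which is 66.7% of each. The 4 genes that passed the test and held at least 2 matches are printed as examples, with the matches in capitals.

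Fos, chr12:85473640-85473939 (+ strand): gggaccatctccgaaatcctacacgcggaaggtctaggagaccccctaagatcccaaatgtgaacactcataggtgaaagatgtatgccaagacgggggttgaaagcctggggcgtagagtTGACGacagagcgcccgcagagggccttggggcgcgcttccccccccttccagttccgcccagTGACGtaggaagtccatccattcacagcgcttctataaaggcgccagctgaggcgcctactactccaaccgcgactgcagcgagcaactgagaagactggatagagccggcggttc
Nr4a1, chr15:101266596-101266895 (+ strand): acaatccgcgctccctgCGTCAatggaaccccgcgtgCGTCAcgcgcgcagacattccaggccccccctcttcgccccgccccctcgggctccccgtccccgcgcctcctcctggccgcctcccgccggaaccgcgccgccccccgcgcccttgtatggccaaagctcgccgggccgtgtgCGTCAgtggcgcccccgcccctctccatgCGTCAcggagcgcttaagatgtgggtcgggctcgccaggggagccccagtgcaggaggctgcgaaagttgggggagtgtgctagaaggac
Egr4, chr6:85513540-85513839 (− strand): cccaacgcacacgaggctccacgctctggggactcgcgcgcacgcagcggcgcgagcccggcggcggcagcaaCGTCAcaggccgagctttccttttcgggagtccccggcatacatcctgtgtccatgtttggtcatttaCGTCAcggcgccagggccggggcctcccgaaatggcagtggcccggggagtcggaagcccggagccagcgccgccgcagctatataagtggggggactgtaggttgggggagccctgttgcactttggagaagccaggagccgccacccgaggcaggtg
Dusp1, chr17:26508423-26508722 (− strand): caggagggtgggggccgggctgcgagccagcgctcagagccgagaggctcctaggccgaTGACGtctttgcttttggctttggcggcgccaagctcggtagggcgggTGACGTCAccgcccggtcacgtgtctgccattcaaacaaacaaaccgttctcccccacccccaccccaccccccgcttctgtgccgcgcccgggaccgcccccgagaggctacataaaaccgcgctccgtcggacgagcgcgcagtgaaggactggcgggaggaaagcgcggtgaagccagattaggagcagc

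Fos holds 2 matches, Nr4a1 4, Egr4 2 and Dusp1 3, of which an overlapping pair forms the full palindrome. A match describes the letters of the window and not a bound site.

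Outside these lists, the autosomal protein-coding genes with the smallest p higher in females were, after Egr4, Sac3d1 (18.4 ± 1.27 against 14.5 ± 1.13 TPM, mean ± SD; edgeR adjusted p = 0.021), the ubiquitin ligase adaptor gene Klhl21 (log2 difference of 0.32), Egr1 and the chondroitin synthesis gene Chpf (0.19). Higher in males were the zinc finger gene Zfp677 (2.997 ± 0.550 against 1.70 ± 0.275 TPM; edgeR adjusted p = 0.042), Mdm4, a p53 inhibitor (−0.15), Cspp1 (−0.20), Cstad (−0.55) and Gm14399 (−0.28). Of the other lists, the clock gene Per1 (0.32; edgeR adjusted p = 0.076) and the cell cycle inhibitor gene Cdkn1a (0.30; edgeR adjusted p = 0.073), which both also respond to glucocorticoids, were higher in females, together with Xist. All 10 glucocorticoid-responsive genes were above 0, with a median log2 difference of 0.26, of which these 2 passed and 4 had an unadjusted p under 0.05, and none passed with the share of uniquely mapped pairs in no gene as a covariate.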

How the data were processed

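RNA-seq was done on bilateral NAc of 24 mice with 1 library each, of which the 12 Con animals were used. The authors trimmed 100 bp pairs and aligned them to mm10 with STAR 2.6.1b (GENCODE M15), and deposited STAR's gene counts (not normalized, pairs with a unique place only) in 3 columns, unstranded and by strand. The sense counts were used, 94.8% to 95.0% of the stranded counts.

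TPM was computed with merged exon lengths of GENCODE M21 (GRCm38), which held 52489 of 52636 identifiers. Genes were filtered by filterByExpr (minimum count 10), normalized by TMM and tested with edgeR 4.0.16 (R 4.3.3), with Benjamini-Hochberg adjustment. DESeq2 1.42.0 was used in alternatives. Permutation tests of correlations used 100000 orders, the observed one included, drawn in numpy 2.4.6 (Python 3.11.15). Sign-flip tests were run in scipy 1.17.1, and ratios between receptors used a pseudocount of 0.001 TPM. Procedures were tested on simulated data. The sample labels' estrous stages, given to males too, were not used. Same-numbered females and males are not littermates by any label.

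The members and lists were chosen with earlier results of these data known. Named were the 20 top protein-coding genes, the 10 genes with the most counts, the 10 top lncRNAs, mitochondrial genes, the highest and lowest of each list, the 15 most and least variable genes (5 lncRNAs), listed genes past the sex test and the 5 autosomal protein-coding genes of smallest p in either direction. Other members named within a list were chosen after their values were seen. Gpr52 and Oip5os1 were not analysed here, and some genes that these rules name are not reported.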

Additional observations from a re-analysis of the deposited data

Results flagged for a closer look

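Each list sum, the markers and the count shares were examined in the 6 females and the 6 males for a single animal far from the others by Dixon's criterion. The groups share animals and genes and are thus not independent, so their number past the criterion is a description. Of 96 groups 12 had an animal past it, where chance gives about 1 in 20 of independent groups.

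Con female 3 accounted for 8 of them. It was low in shared spiny neuron genes (3251 TPM against 5849 to 7280 in the other females), in Drd2 (99.7 against 199.5 to 248.0), in Ppp1r1b (452 against 954 to 1233) and in summed dopamine receptors (243 against 479 to 610). Summed adenosine receptors (219.5 against 352 to 414) and metabotropic glutamate receptors (490.3 against 595 to 654) were low as well. It was high in the pan-neuronal list, which includes GABAergic genes (4069 TPM against 3191 to 3425), and in cannabinoid receptors (163 against 60.8 to 93.9).

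Con female 2 was high in kainate receptor subunits (357 TPM against 317 to 330.2) and low in the share of counts from mitochondrial genes (1.95% against 2.75% to 3.07%). Con female 1 was low in adrenergic receptors (109 TPM against 122 to 127), and Con male 4 was high in red blood cell genes (986 TPM against 211 to 423).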

How the results depend on the processing

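The sex comparison depended most on the processing, with 544 genes at an adjusted p under 0.10. DESeq2 gave 1511, counts without regard to strand 1362 (577 higher in females), DESeq2 size factors 554, at least 10 counts in every animal 627, library set as a covariate 469 and no filter 338 (59 higher in females). The cortical marker score as a covariate gave 46, offsets for GC content and exon length 33 and an adjusted p under 0.05 gave 32. The share of uniquely mapped pairs in no gene as a covariate gave 11, of which 1 was autosomal. The fits within library numbers 1 to 12 and 13 to 24 gave 6 and 8, of which 0 were autosomal in each. Without both Con female 3 and Con male 5, an alternative chosen after seeing the data, 1171 passed. With each animal left out in turn the count ran from 20 to 1395. It was 44, 93, 20 and 51 without Con females 1, 2, 4 and 5, 37, 21, 39, 1395 and 284 without Con males 1, 3, 4, 5 and 6, and within 1.5 times the full count without the other 3. Apart from the subsets' smaller size, the cause was not tested.

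The replicate number as a block gave 12 genes, of which 5 were autosomal, and 8 with the offsets, of which 1 was autosomal. Same-numbered females and males did not deviate together over all genes (correlations of −0.07, 0.06, −0.35, 0.37, −0.36 and 0.14). Such correlations cannot exclude a shared litter or shared handling, so whether the numbers pair animals was not settled.

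Of 21 genes named for sex, in 26 alternatives each, 307 values kept direction and call and 239 kept direction only. The other main results moved less. With each animal left out, 67 to 77 receptor pairs passed, the median SD was 0.0897 to 0.0999, and 17101 to 17176 genes had at least 1 TPM. Over the other alternatives 70 to 82 pairs passed, and the genes at 1 TPM numbered 16809 to 19497 (12006 at 5 TPM). With at least 100 counts as the minimum, 9 of the 15 most variable genes were kept. Genes at a few TPM rest on few counts, and library depth limits them most.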
